A study of Mus musculus with 9 samples.

Results

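The cadherin and protocadherin genes described here are 86 of the 23453 gene symbols counted in a mouse bulk RNA-seq series. They were taken by symbol alone, as every gene analysed here that is named Cdh with a number or Pcdh with a number or letter code, a rule that uses no measured value, although the family was picked with earlier results of these data known. Cdh1 and Cdh2, the genes of E-cadherin and N-cadherin, and the transcripts named as antisense were left out. Of the 86 genes, 20 are named Cdh and 66 Pcdh, 31 lie outside the Pcdha, Pcdhb and Pcdhg gene clusters, and the clusters hold 13, 20 and 22 of them. Pcdh12 was not analysed here.

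The cells were in 3 states with 3 libraries each. EpiLCs, cells that resemble the early post-implantation epiblast, were made from naive embryonic stem cells (ESCs) by 48 h in N2B27 medium with KSR (a serum replacement), FGF2 and ActivinA. They were collected at that point or kept for 24 h more, as aEpiLCs in N2B27 without these factors or as pEpiLCs with Activin and CHIR99021, a small molecule that activates Wnt/β-catenin signalling. The labels call the aEpiLC medium basal, whereas the methods list KSR in the medium of aEpiLCs and pEpiLCs alike. The study uses aEpiLCs and pEpiLCs as in vitro models of anterior and posterior epiblast and calls the cells wild-type. It names no cell line for these libraries, and the labels give embryo as the tissue although the cells were cultured from ESCs. The comparisons ask which cadherins and protocadherins differ between the models and which differ between each model and the EpiLCs it came from. Nothing in the labels says whether replicates were separate cultures, so p-values measure the spread between these libraries.

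Cadherins are membrane proteins that hold cells together by calcium-dependent binding of their extracellular repeats. Classical type I and type II cadherins bind their own kind on the neighbouring cell and are tied to the actin cytoskeleton through catenins. When the posterior epiblast enters the primitive streak, cells leave the epithelium and exchange cadherins. Delta protocadherins, such as Pcdh8, are single genes whose proteins adhere weakly and modulate cell movement and sorting. The Pcdha, Pcdhb and Pcdhg clusters hold tandem variable exons with a promoter each. In the Pcdha and Pcdhg clusters each variable exon is spliced to the same constant exons, and neurons use the clusters to tell self from non-self.

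Levels are given as CPM, counts scaled to library size with TMM factors that edgeR computed from the 9 libraries together. The libraries held 20560564 to 23417917 counts, and 3 counts, taken as the detection limit, were worth 0.131 to 0.144 CPM. A gene was called higher or lower where edgeR's quasi-likelihood test gave a Benjamini-Hochberg adjusted p below 0.05 over all genes tested and the log2 fold change was at least 1 in size. The pEpiLC libraries were not alike. Between pEpiLC replicate 1 and the other replicates 321 and 326 of 15793 genes differed by more than 4-fold, whereas other pairs of libraries of a state had 57 to 75 such genes. The summed level of 8 primitive streak and nascent mesoderm markers was 2550 CPM in pEpiLC replicate 1, 498 and 491 CPM in replicates 2 and 3, and 4.05 to 7.93 CPM in the EpiLC and aEpiLC libraries. Checked against the labels, all 6 markers of the post-implantation epiblast were expressed in every state, with sums of 4438 to 4750 CPM in EpiLC, 4122 to 4343 CPM in aEpiLC and 1810 to 3088 CPM in pEpiLC. The 6 neural markers summed to 56 to 63.9 CPM in EpiLC, 106 to 139 CPM in aEpiLC and 7.09 to 16.7 CPM in pEpiLC. Most of that sum was Tubb3, with 52.3 to 60.5 CPM in EpiLC, 92.4 to 120 CPM in aEpiLC and 6.13 to 15.6 CPM in pEpiLC, and Sox1 and Zic1 were at or under 1.47 CPM in every library. The naive pluripotency list summed to 17.1 to 37.4 CPM over the 9 libraries, extraembryonic endoderm to 109 to 234 CPM, endothelium to 6.18 to 23.9 CPM and trophoblast to 1.22 to 11.2 CPM, with the trophoblast marker Elf5 at 3 counts or fewer throughout. Most of the extraembryonic endoderm sum was Apoe, with 106 to 227 CPM. Rhox5 had 23.3 to 31.2 CPM in EpiLC and 1.44 to 3.82 CPM elsewhere, and Apoa1, Amn, Cubn and Sox7 were at or under 1.93 CPM in every library. In these bulk libraries fewer cells of a type and less RNA per cell cannot be told apart, and values without pEpiLC replicate 1 are given beside the results.

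Per kb of exon, which allows levels to be compared between genes, Pcdh1, Cdh3 and Cdh24 were the highest of the 31 genes outside the clusters in EpiLC. Pcdh1, a delta protocadherin of epithelia, stood at 13.1 ± 1.47 CPM per kb (SD, n = 3), Cdh3, which encodes P-cadherin, at 10.2 ± 0.850 and Cdh24, a type II cadherin, at 5.16 ± 0.116. Cdh4, the gene of R-cadherin, and Cdh9, a type II cadherin known from neurons, followed at 1.23 ± 0.0701 and 1.16 ± 0.353 CPM per kb. The aEpiLCs had the same leading genes, at 17.7 ± 0.637 CPM per kb for Pcdh1, 11.7 ± 0.276 for Cdh3 and 5.32 ± 0.341 for Cdh24, and Pcdh18 with 2.73 ± 0.343 and Cdh4 with 1.75 ± 0.403 came next. In pEpiLC the order was Cdh3 at 8.27 ± 1.38, Cdh24 at 5.35 ± 0.237, Pcdh1 at 4.88 ± 1.60, Pcdh7 at 4.46 ± 6.06 and Cdh11 at 3.97 ± 4.67 CPM per kb. The last 2 owed their place to pEpiLC replicate 1, where they reached 11.5 and 9.36 CPM per kb against 0.931 to 0.988 and 1.15 to 1.40 in replicates 2 and 3. The order of Cdh24 and Pcdh1 rested on replicate 1 as well, with Pcdh1 at 3.05 and Cdh24 at 5.46 CPM per kb there, whereas Pcdh1 was the higher of the pair in replicates 2 and 3. Over all 86 genes, Pcdhgc3 of the Pcdhg cluster had the highest mean in pEpiLC, 14.0 ± 6.84 CPM per kb, and its 3 pEpiLC libraries held 9.37 to 21.9 CPM per kb against 1.01 to 1.37 in EpiLC.

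Pcdh7, Cdh11, Pcdh8 and Pcdhgc3 were higher in pEpiLC than in aEpiLC, and Pcdh1, Cdh9 and Cdh12 were lower. These were 4 genes higher and 3 lower among the 51 that could be tested, next to 2.55% called higher and 4.74% called lower of the 15198 genes tested in all. The fitted log2 fold changes ranged from -2.06 for Cdh12 to 5.12 for Pcdh7, and the median of the 51 was 0.19 beside 0.01 over all genes. That median turned to -0.03 without pEpiLC replicate 1 and was 0.04 without aEpiLC replicate 3. For 14 of the 51 genes every pEpiLC library lay above every aEpiLC library and for 7 every one lay below, or 27.5% and 13.7%, beside 19.4% and 19.6% of all genes. Without pEpiLC replicate 1, Pcdh7, Cdh11, Pcdh8 and Pcdhgc3 were again the genes called higher, and 6 genes were called lower, with Cdh8, Cdh20 and Pcdh17 joining Pcdh1, Cdh9 and Cdh12. All genes then gave 2.51% and 4.90%. With at least 10 counts required in each library, 4 of 33 genes were called higher and 2 lower, beside 2.12% and 4.07% of all genes. With 2 aEpiLC libraries edgeR made fewer of the higher calls: 1, 0 and 1 were left without aEpiLC replicate 1, 2 or 3, when the higher calls over all genes fell from 387 to 252, 180 and 201. DESeq2 called 4, 4 and 5 genes higher in the same fits, and without aEpiLC replicate 2 edgeR passed 10 at an unadjusted p below 0.05. The genes called by DESeq2 need not be those of edgeR. With all libraries DESeq2 also called 4 higher, but Pcdh7, which got no adjusted p there, was not among them.

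Of the genes higher in pEpiLC, Pcdh8 encodes paraxial protocadherin, which is known from the primitive streak and paraxial mesoderm. It stood at 2.08, 2.51 and 2.31 CPM in EpiLC replicates 1 to 3, at 3.80, 3.57 and 1.61 CPM in aEpiLC and at 30.3, 11.1 and 8.85 CPM in pEpiLC. Every pEpiLC library was above every library of the other states, and replicate 1 was the highest. The log2 fold change over aEpiLC was 2.48 (SE 0.532, edgeR adjusted p = 0.0211), or 1.73 (SE 0.270, adjusted p = 0.000768) without pEpiLC replicate 1. Leaving out any 1 aEpiLC library ended the call, with adjusted p between 0.0683 and 0.0832.

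Pcdh7, a delta protocadherin known from neurons and from migrating and metastatic cells, had the largest fold change among the tested genes of the set. Its levels were 0.231, 0 and 0.131 CPM in EpiLC, 1.64, 0.995 and 1.43 CPM in aEpiLC, and 122, 10.5 and 9.87 CPM in pEpiLC. The 3 states did not overlap, and pEpiLC replicate 1 was far above replicates 2 and 3. The log2 fold change of pEpiLC over aEpiLC was 5.12 (SE 1.15, adjusted p = 0.0243) and 2.90 (SE 0.209, adjusted p = 1.75e-06) without that library. DESeq2 gave a log2 fold change of 5.13 and no adjusted p. Without any 1 of the aEpiLC libraries edgeR did not call the gene (adjusted p 0.0945 to 0.107), with log2 fold changes of 4.94 to 5.28. Cdh11, a type II cadherin of mesenchymal cells, was ordered in the same way, at 0.231, 0.419 and 0.740 CPM in EpiLC, 3.28, 2.08 and 2.44 CPM in aEpiLC and 83.3, 12.4 and 10.2 CPM in pEpiLC. Its log2 fold change over aEpiLC was 3.76 (SE 0.863, adjusted p = 0.0264) with all libraries and 2.12 (SE 0.198, adjusted p = 1.51e-05) without pEpiLC replicate 1, and it was not called without any 1 of the aEpiLC libraries (adjusted p 0.0924 to 0.113). The fibroblast marker Pdgfra had 51.8, 2.15 and 2.14 CPM in the pEpiLC libraries. The 6 feeder fibroblast markers in the table, Pdgfra among them, summed to 71.6, 15.6 and 16.5 CPM in pEpiLC and 19.9 to 24.8 CPM elsewhere. Of the others, Col1a2 was higher in pEpiLC too, at 10.2, 4.21 and 4.89 CPM against 1.31 to 3.33 CPM elsewhere. Thy1 had 7.45 to 7.997 CPM in pEpiLC against 8.19 to 17.1 CPM, Col1a1 1.36 to 1.49 against 1.78 to 3.12 CPM, Dcn 0.186 to 0.307 against 1.31 to 7.18 CPM, and Col3a1 at most 0.175 CPM against 0.087 to 0.563 CPM. Pdgfra is also a gene of nascent mesoderm, and the part of such cells in the level of Cdh11 was not tested. Cdh11 on chromosome 8 (102632095 to 102785642, minus strand, GRCm38) and Pcdh7 on chromosome 5 (57717967 to 58133230, plus strand) are not neighbours. Genes on the opposite strand overlap exons of Pcdh7 and likewise of Pcdh8, Pcdh10, Pcdh19, Cdh8 and Cdh9, and the strand of the libraries is not given in the sources used here.

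Pcdhgc3, a C-type gene of the Pcdhg cluster whose protein is known to bind Axin1 and dampen Wnt signalling, was the remaining gene called higher. It had 23.3, 17.5 and 18.03 CPM in aEpiLC and 120, 51.5 and 59.4 CPM in pEpiLC. The groups did not overlap, and the lowest pEpiLC library held more than the highest aEpiLC library. The log2 fold change was 1.97 (SE 0.322, adjusted p = 0.00800), or 1.49 (SE 0.122, adjusted p = 4.75e-06) without pEpiLC replicate 1. The call was lost only without aEpiLC replicate 2, at an adjusted p of 0.0523.

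Pcdh1 was the most abundant gene of the set in EpiLC and aEpiLC and fell in pEpiLC. Its levels were 119, 101 and 125 CPM in EpiLC, 162, 151 and 154 CPM in aEpiLC and 26.9, 52.9 and 49.0 CPM in pEpiLC. No library of pEpiLC reached those of the other states, and pEpiLC replicate 1 was the lowest. The log2 fold change over aEpiLC was -1.87 (SE 0.221, adjusted p = 0.00201), and it stayed called under every alternative, with values from -2.04 to -1.62. Cdh9 fell likewise, from 3.75, 4.39 and 3.63 CPM in aEpiLC to 0.622, 1.23 and 1.26 CPM in pEpiLC. Its log2 fold change was -1.92 (adjusted p = 0.00611), again called under every alternative. Cdh12, a type II cadherin of neurons, went from 2.25, 1.04 and 1.52 CPM to 0.0958, 0.482 and 0.559 CPM, with a log2 fold change of -2.06 (adjusted p = 0.0416). It lost its call in 6 of 13 alternatives, the fit with the replicate number as a block among them. The neural marker sum given above was lower in pEpiLC than in aEpiLC as well, and its part in these values was not tested.

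**Figure D1:**
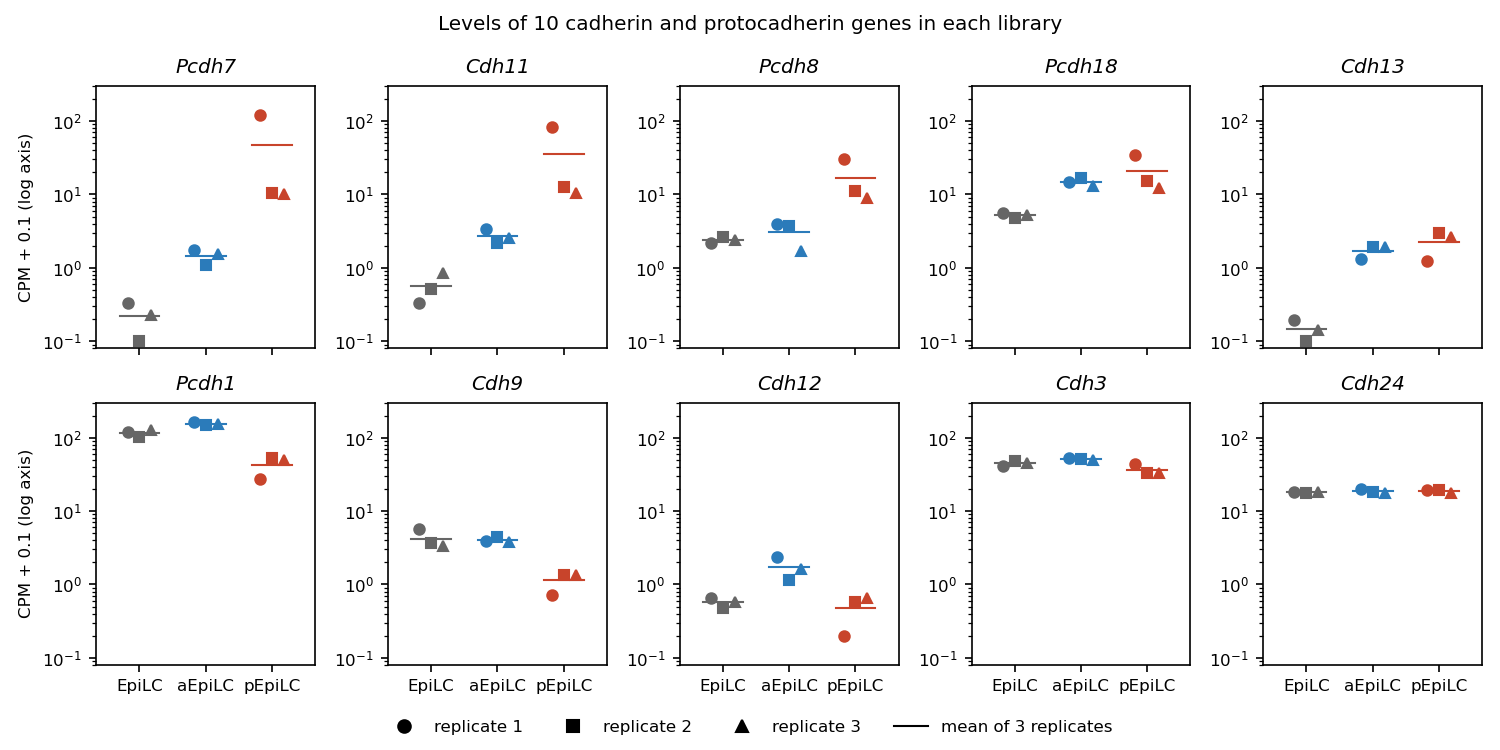
Levels of 10 genes in each library, as CPM plus 0.1 on a log axis, by state on the x axis; symbols are replicates 1 to 3 and bars the mean of 3. Pcdh7, Cdh11 and Pcdh8 were highest in pEpiLC replicate 1 (122, 83.3 and 30.3 CPM), Pcdh1 and Cdh9 were lowest in pEpiLC, and Cdh24 lay between 17.5 and 19.9 CPM in all 9 libraries.

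The classical cadherins expressed beside these genes differed less. Cdh3 had 41.1, 48.5 and 44.3 CPM in EpiLC, 52.5, 50.8 and 50.2 CPM in aEpiLC and 43.2, 32.8 and 32.6 CPM in pEpiLC. Its log2 fold change between pEpiLC and aEpiLC was -0.51 (SE 0.123, adjusted p = 0.0319), under the size set for a call. Cdh24 differed by a log2 fold change of 0.00 (SE 0.103, adjusted p = 0.985), and Cdh4 by -0.13 (SE 0.339, adjusted p = 0.830) with 18.2, 9.38 and 7.36 CPM in pEpiLC. Without pEpiLC replicate 1 the difference of Cdh4 was -0.61 (SE 0.193, adjusted p = 0.0438), short of the size for a call. Cdh10, a type II cadherin of neurons, had 8.003 to 8.50 CPM in aEpiLC and 3.93 to 5.65 CPM in pEpiLC, with a log2 fold change of -0.72 (adjusted p = 0.0325).

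The promoters of Pcdh7 and Pcdh8, called higher in pEpiLC than in aEpiLC, of Pcdh18, called higher in both later states than in EpiLC, and of Cdh9, called lower in pEpiLC, are shown because CHIR99021 activates Wnt signalling and its transcription factors of the TCF/LEF family bind sites with the core CTTTGA. The sequences run 5′ to 3′ on the gene's strand, end before the annotated gene start and come from RefSeq (GRCm38.p6), and capitals mark any match to CTTTGA or its reverse complement TCAAAG, or to the E-box CAGGTG or its reverse complement CACCTG, which is bound by repressors of E-cadherin. The intervals are chr5:57717831-57717966 (plus strand) for Pcdh7, chr14:79771313-79771562 (minus) for Pcdh8, chr3:49757326-49757566 (minus) for Pcdh18 and chr15:16728665-16728755 (plus) for Cdh9.
Pcdh7: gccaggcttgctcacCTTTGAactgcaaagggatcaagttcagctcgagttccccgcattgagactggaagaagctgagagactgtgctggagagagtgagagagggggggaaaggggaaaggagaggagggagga
Pcdh8: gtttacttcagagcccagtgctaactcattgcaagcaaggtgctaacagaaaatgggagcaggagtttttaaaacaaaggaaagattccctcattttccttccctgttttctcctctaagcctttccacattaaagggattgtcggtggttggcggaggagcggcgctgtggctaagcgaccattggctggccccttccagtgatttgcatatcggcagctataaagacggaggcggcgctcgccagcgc
Pcdh18: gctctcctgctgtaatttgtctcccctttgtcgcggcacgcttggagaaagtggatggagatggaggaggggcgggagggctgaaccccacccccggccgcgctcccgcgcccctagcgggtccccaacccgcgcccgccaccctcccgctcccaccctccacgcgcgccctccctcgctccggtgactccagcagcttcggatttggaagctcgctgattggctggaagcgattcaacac
Cdh9: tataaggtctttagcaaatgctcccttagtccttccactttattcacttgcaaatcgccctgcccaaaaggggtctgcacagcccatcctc
The Pcdh7 stretch holds 1 match, CTTTGA, which starts 235 bases before the RefSeq start, and the stretches of the other genes hold none. RefSeq windows of 250 bases before the start were at hand for 22 of the 86 genes, in 25 windows. CTTTGA or its reverse complement was found for 2 of these genes, Cdh7 and Pcdh7, beside 13.8% of 32851 windows of all genes, and the E-box for Cdh7 and Pcdh15, beside 17.2%. Cdh7, a type II cadherin, had 0.750 to 1.09 CPM in aEpiLC and 0.0479 to 0.885 CPM in pEpiLC and was not called.

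Against the EpiLCs they came from, pEpiLCs had 21 genes of the set called higher and 3 called lower among 46 tested, beside 7.71% and 8.13% of the 15288 genes tested in all. Without pEpiLC replicate 1 these counts were 20 and 3 of 49, beside 7.05% and 8.33%. The median log2 fold change was 1.24 with all libraries and 0.96 without pEpiLC replicate 1, and that of all genes was 0.02 and 0.01. For 28 of the 46 genes, or 60.9%, the lowest pEpiLC library exceeded the highest EpiLC library, and for 3, or 6.52%, the reverse held, beside 30.2% and 28.4% of all genes. Of the higher genes 13 lie in the clusters, where members share exons and reads and so do not count as separate measurements. Where each library had to hold at least 10 counts, 22 genes were left, 7 were called higher and 2 lower, beside 6.03% and 5.91% of all genes, and the median was 0.94.

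Of the delta protocadherins, 6 of 8 tested were called higher in pEpiLC than in EpiLC, and Pcdh1 was called lower, beside 7.71% and 8.13% of all genes. With at least 10 counts in every library 4 could be tested, of which Pcdh8, Pcdh18 and Pcdh19 were called higher and Pcdh1 lower, whereas Pcdh7, Pcdh9 and Pcdh11x had fewer in 1 or more EpiLC libraries. All genes gave 6.03% higher and 5.91% lower under that filter. The log2 fold change was 8.54 (SE 1.60, adjusted p = 0.00470) for Pcdh7 and 2.86 (SE 0.481, adjusted p = 0.00303) for Pcdh8, and without pEpiLC replicate 1 these were 6.32 (SE 0.353) and 2.11 (SE 0.178). The fold change of Pcdh7 sets pEpiLC against EpiLC libraries that held 0 to 0.231 CPM, so its size is loosely known. Pcdh18, a delta protocadherin whose protein binds Disabled-1, rose from 5.50, 4.61 and 5.18 CPM in EpiLC to 34.5, 15.3 and 12.2 CPM in pEpiLC, a log2 fold change of 2.01 (SE 0.383, adjusted p = 0.00499), or 1.43 (SE 0.151, adjusted p = 2.24e-06) without pEpiLC replicate 1. Pcdh11x, an X-linked gene of the brain, rose from 0.139, 0.233 and 0.131 CPM to 3.11, 1.01 and 1.49 CPM. Pcdh19, known from an inherited epilepsy, rose from 1.02, 0.977 and 0.827 CPM to 2.63, 2.02 and 2.14 CPM. Pcdh9, a delta protocadherin of neurons, rose from 0.231, 0.465 and 0.609 CPM to 1.25, 1.05 and 1.68 CPM. The log2 fold changes of these 3 were 3.44 (SE 0.569), 1.26 (SE 0.247) and 1.58 (SE 0.400), and all groups were apart. The call of Pcdh9 was lost without EpiLC replicate 2 or pEpiLC replicate 3, at adjusted p-values of up to 0.0553.

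Among the cadherins, Cdh11 and Cdh13 were called higher and Cdh9 and Cdh15 lower in pEpiLC than in EpiLC. With at least 10 counts in every library Cdh9 was the cadherin called. Cdh11 and Cdh13 had fewer in EpiLC libraries and Cdh15 in pEpiLC libraries, so they could pass edgeR's filter through the state where they were high. The log2 fold change of Cdh11 was 6.22 (SE 1.08, adjusted p = 0.00345), and 4.58 (SE 0.270) without pEpiLC replicate 1. Cdh13 encodes T-cadherin, which is held in the membrane by a lipid anchor and has no cytoplasmic tail. It had 2, 0 and 1 counts in EpiLC, at or under the detection limit, and 24, 65 and 54 in pEpiLC, or at least 15.5-fold more CPM, and here pEpiLC replicate 1 was the lowest of its state. Cdh15, the gene of M-cadherin of muscle, had 12, 23 and 11 counts in EpiLC and 2, 3 and 2 in pEpiLC, or at least 4.88-fold fewer CPM. Cdh9 fell by 1.99 on the log2 scale (SE 0.341, adjusted p = 0.00330) and Pcdh1 by 1.43 (SE 0.228, adjusted p = 0.00251). Cdh20 had 3.30, 0.526 and 0.698 CPM in pEpiLC against 0.261 to 0.372 CPM in EpiLC and did not pass the test (adjusted p = 0.0533).

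**Figure D2:**
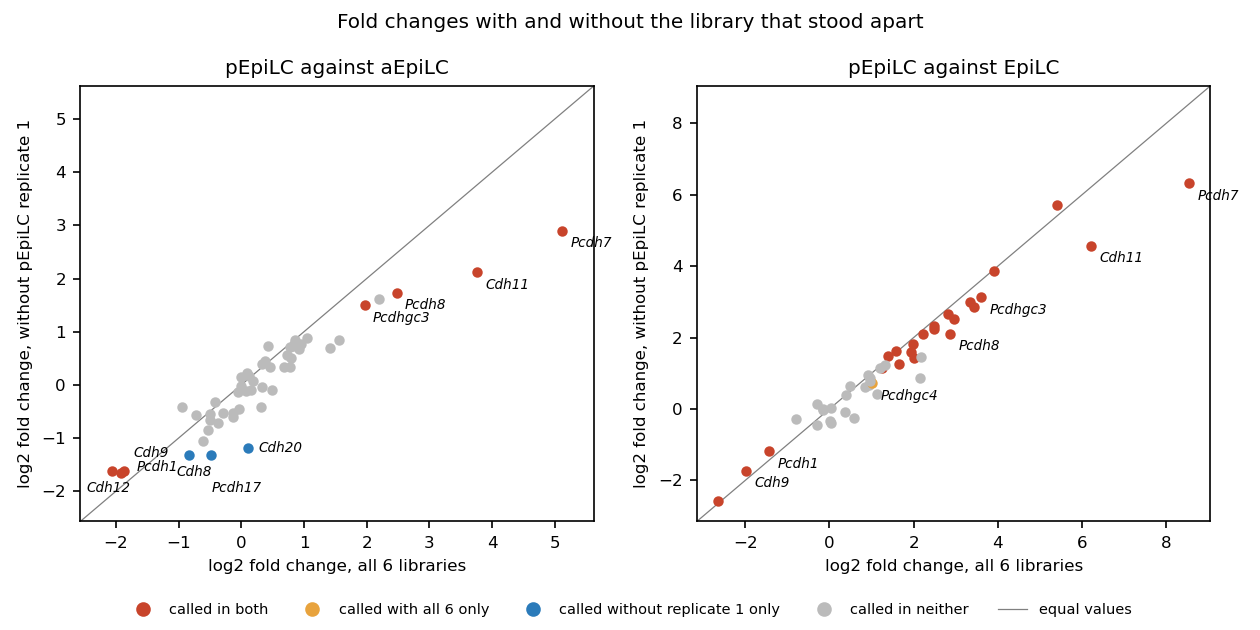
Log2 fold changes of the tested genes with all 6 libraries (x axis) and without pEpiLC replicate 1 (y axis), for pEpiLC against aEpiLC (left, 51 genes) and against EpiLC (right, 46 genes); each point is a gene, coloured by where it was called, and the line marks equal values. Pcdh7 and Cdh11 lie furthest below the line, at 5.12 against 2.90 and 3.76 against 2.12 on the left.

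In aEpiLC, which had neither Activin nor CHIR99021, 21 of the 46 genes tested were called higher than in EpiLC and 1 lower, beside 7.25% and 5.24% of the 15301 genes tested. This comparison shares its EpiLC libraries with the previous comparison and its aEpiLC libraries with the contrast of pEpiLC and aEpiLC. The median log2 fold change was 1.02 beside 0.00 over all genes, and every aEpiLC library lay above every EpiLC library for 30 genes, or 65.2%, and below for 2, or 4.35%, beside 29.8% and 26.3%. With at least 10 counts required in each library, 5 of 22 genes were called higher, beside 5.60% of all genes, the median log2 fold change was 0.48, and Cdh15, the gene called lower, was no longer tested, beside 3.54% called lower.

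Of the type II cadherins, many of them known from developing neurons, 5 of 10 tested were called higher in aEpiLC than in EpiLC, beside 7.25% of all genes. The other 5 were not called. Each of the 5 called genes had an EpiLC library with fewer than 10 counts and so could pass the filter through aEpiLC, where it was high. The type II genes with at least 10 counts in every library, Cdh7, Cdh9, Cdh10 and Cdh24, were not called, so the count says little about the class. Cdh8 rose from 0.462, 0.233 and 0.392 CPM to 1.64, 1.40 and 1.33 CPM, a log2 fold change of 1.97 (SE 0.359, adjusted p = 0.000560). Cdh12 and Cdh20 rose by log2 fold changes of 1.74 (SE 0.380) and 2.03 (SE 0.356). All of these aEpiLC libraries lay above those of EpiLC. Cdh6, known from kidney and neural crest, had 0.543 to 0.598 CPM in aEpiLC against 0 to 0.279 CPM in EpiLC, with a log2 fold change of 2.00 (adjusted p = 0.0201) that was lost without EpiLC replicate 1 or 3 and in the fit to all 9 libraries. Cdh11 rose by 2.44 on the log2 scale (SE 0.371, adjusted p = 0.000137) to 2.60 ± 0.618 CPM, below each of its pEpiLC libraries, and lost its call in the fit to all 9 libraries (adjusted p = 0.0909). Cdh10 had a log2 fold change of 0.53 (SE 0.137, adjusted p = 0.00603), short of the size for a call. The neural marker sum was also higher in aEpiLC, and its part in these values was not tested. Of its 6 genes, Tubb3, Stmn4 and Pax6 were higher in every aEpiLC than in every EpiLC library, Sox1 and Neurog2 overlapped, and Zic1 was lower, at 0.181 to 0.322 CPM against 0.326 to 0.566 CPM.

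Among the delta protocadherins, 4 of 8 tested were called higher in aEpiLC than in EpiLC, beside 7.25% of all genes. With at least 10 counts in every library 4 could be tested and Pcdh18 was the gene called, since Pcdh7, Pcdh9 and Pcdh17 had fewer in 1 or more EpiLC libraries. All genes gave 5.60% higher under that filter. Pcdh18 rose to 14.8, 16.5 and 12.8 CPM, a log2 fold change of 1.51 (SE 0.137, adjusted p = 1.51e-06). Its pEpiLC replicate 2, at 15.3 CPM, lay within that range, and replicate 3, at 12.2 CPM, just under it. Between pEpiLC and aEpiLC its log2 fold change was 0.49 (SE 0.364, adjusted p = 0.411), which did not pass the test, and its sign turned to -0.10 (SE 0.145, adjusted p = 0.679) without pEpiLC replicate 1. Pcdh7 rose by 3.41 on the log2 scale (SE 0.561, adjusted p = 0.000259), a call lost in the fit to all 9 libraries (adjusted p = 0.180), Pcdh9 by 1.44 (SE 0.382) and Pcdh17, a synaptic protocadherin, by 1.04 (SE 0.366, adjusted p = 0.0321). The call of Pcdh17 was lost in 7 of 13 alternatives. Pcdh8 was not called, with a log2 fold change of 0.36 (SE 0.288, adjusted p = 0.323). Cdh13 went from 2, 0 and 1 counts to 26, 40 and 39, or at least 11.5-fold more CPM. Cdh15 was the gene called lower, at 5, 6 and 6 counts (log2 fold change -1.42, adjusted p = 0.0240), and lost that call in 5 of 13 alternatives. Pcdh1 was higher by 0.42 on the log2 scale (SE 0.0768, adjusted p = 0.000578) short of the size for a call, whereas it was called lower in pEpiLC.

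**Figure D3:**
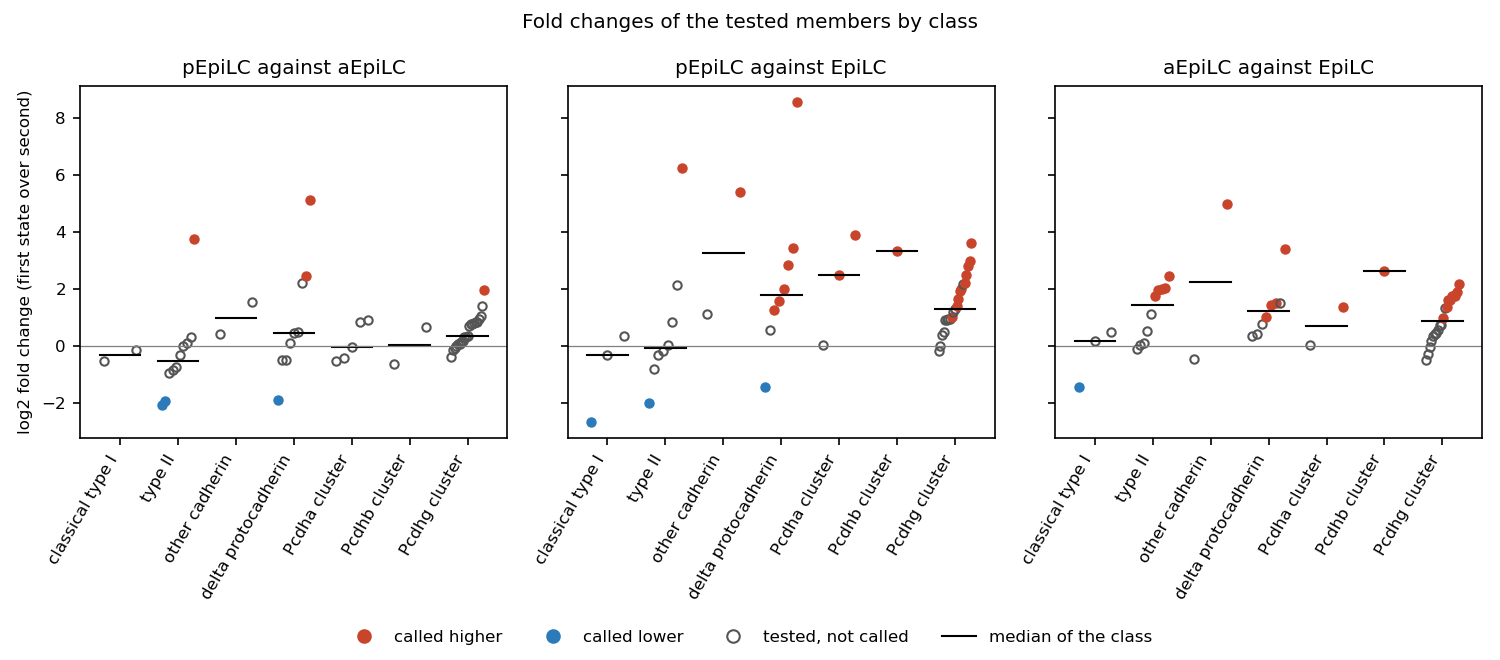
Log2 fold changes of all tested genes by class in the 3 comparisons; filled points were called, open points were tested and not called, and bars are class medians. The delta protocadherins reach from -1.87 to 5.12 between pEpiLC and aEpiLC, and the Pcdhg cluster has a median of 0.38 there against 1.31 and 0.88 in the comparisons with EpiLC.

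The clustered protocadherins lie in tandem on chromosome 18. Because the constant exons are shared, reads from them cannot be given to a single gene: 48.6% to 54.9% of the exon bases of the 12 Pcdha genes matched to the annotation and 27.8% to 66.8% of each Pcdhg gene are shared with others of the set, whereas 2 of the 20 Pcdhb genes share any, at most 9.7%. RSEM divides such reads by estimate, so summed levels are given first, as values with no test. A sum leaves out reads given to genes outside the set: Gm37013, Gm37388, Gm38182 and Gm42416 overlap exons of all 22 Pcdhg genes on the same strand, and of these Gm38182 is in the count table, with 0 to 21 counts per library. The 22 Pcdhg genes summed to 57.6, 51.8 and 50.8 CPM in EpiLC, 86.5, 81.6 and 85.9 CPM in aEpiLC and 246, 135 and 146 CPM in pEpiLC. The 3 states did not overlap, and the pEpiLC mean of 176 CPM was 140 CPM without replicate 1. The 13 Pcdha genes were near the limit of the depth, with 37 to 60 counts in all in EpiLC, 78 to 105 in aEpiLC and 79 to 133 in pEpiLC. The 20 Pcdhb genes were as low, at 1.65 to 2.14 CPM in EpiLC, 3.27 to 5.25 CPM in aEpiLC and 3.35 to 5.51 CPM in pEpiLC. In both of these clusters the EpiLC libraries were below all others, and those of aEpiLC and pEpiLC overlapped.

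Pcdhgc3 and Pcdhgc4, which with Pcdhgc5 are the C-type genes at the 3′ end of the Pcdhg cluster, held most of its counts. In EpiLC Pcdhgc4 led with 48.7%, 45.6% and 58.5% of the Pcdhg counts, and Pcdhgc3 had 13.1%, 11.2% and 10.96%. In aEpiLC the share of Pcdhgc3 was 26.9%, 21.4% and 20.99%, and in pEpiLC it was 48.9%, 38.1% and 40.8%, above that of Pcdhgc4 in each library. The share of Pcdhgc4 in pEpiLC was 30.3%, 33.9% and 29.9%. In level, Pcdhgc3 rose from 7.54, 5.82 and 5.57 CPM in EpiLC to a mean of 19.6 ± 3.18 CPM in aEpiLC (log2 fold change 1.62, SE 0.150, adjusted p = 1.83e-06) and of 77.0 ± 37.6 CPM in pEpiLC (3.61, SE 0.350, adjusted p = 0.000362). Without pEpiLC replicate 1 the latter was 3.13 (SE 0.116, adjusted p = 2.87e-11). Pcdhgc4, known for keeping neurons alive, had 28.03, 23.6 and 29.7 CPM in EpiLC, 30.5, 27.1 and 36.2 CPM in aEpiLC and 74.7, 45.9 and 43.6 CPM in pEpiLC. It was called higher in pEpiLC than in EpiLC (log2 fold change 1.01, SE 0.213, adjusted p = 0.00757) but lay at 0.72 without pEpiLC replicate 1, and 7 of 14 alternatives ended that call. BC037039 overlaps exons of Pcdhgc3 on the other strand, and its reads were not told apart here.

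**Figure D4:**
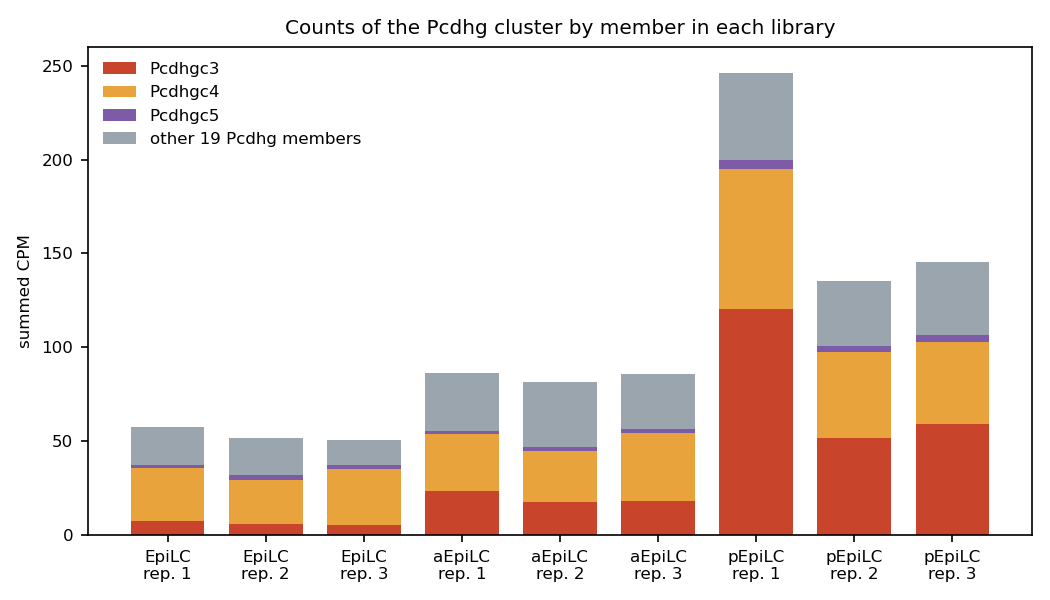
Summed CPM of the Pcdhg cluster in each library, stacked into Pcdhgc3, Pcdhgc4, Pcdhgc5 and the other 19 genes, with the y axis from 0. The totals are 50.8 to 57.6 CPM in EpiLC, 81.6 to 86.5 CPM in aEpiLC and 135 to 246 CPM in pEpiLC, and the Pcdhgc3 segment grows from 5.57 to 7.54 CPM in EpiLC to 51.5 to 120 CPM in pEpiLC.

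The other 19 Pcdhg genes, each with its own variable exon, summed to 20.4, 19.7 and 13.7 CPM in EpiLC, 30.9, 34.8 and 29.7 CPM in aEpiLC and 46.3, 34.6 and 39.1 CPM in pEpiLC. EpiLC lay below the other states, which overlapped. Over the whole cluster 10 of 21 tested genes were called higher in pEpiLC than in EpiLC, 9 of 20 in aEpiLC than in EpiLC and 1 of 21 in pEpiLC than in aEpiLC, and the others tested were not called. Over all genes 7.71%, 7.25% and 2.55% were called higher in these comparisons, and 1 of 21 is near the last of these shares. With at least 10 counts in every library, 4 of 12 Pcdhg genes were called higher in each of the contrasts with EpiLC, namely Pcdhga7, Pcdhga11, Pcdhga12 and Pcdhgc3. All genes gave 6.03% for pEpiLC and 5.60% for aEpiLC under that filter. Between pEpiLC and EpiLC the largest log2 fold changes after Pcdhgc3 were those of Pcdhgb7 (2.97, SE 0.751), Pcdhgb2 (2.82, SE 0.482), Pcdhga7 (2.49, SE 0.265) and Pcdhga5 (2.22, SE 0.371), and the call of Pcdhgb7 was lost without EpiLC replicate 3 (adjusted p = 0.0679). Pcdhga7 had 0.925, 0.745 and 0.609 CPM in EpiLC, 2.77, 2.85 and 2.12 CPM in aEpiLC and 5.22, 3.77 and 3.87 CPM in pEpiLC, with the 3 states apart. Between aEpiLC and EpiLC the largest were those of Pcdhgb7 (2.17, SE 0.587), Pcdhgb4 (1.90, SE 0.394), Pcdhga11 (1.76, SE 0.272), Pcdhgb2 (1.75, SE 0.432) and Pcdhga7 (1.74, SE 0.281). Pcdhga1, the gene at the 5′ end, had 4.44 to 4.81 CPM in EpiLC, 3.45 to 4.25 in aEpiLC and 3.35 to 4.75 in pEpiLC and was not called. How far RSEM's division of shared reads set the values of single genes was not tested.

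Few Pcdha and Pcdhb genes had counts enough for a test: 5 of the 13 Pcdha and 2 of the 20 Pcdhb genes entered at least 1 comparison. In the contrasts with EpiLC none of them had at least 10 counts in every library. Those called there could pass edgeR's filter through the later state, where they were high. Pcdhb22 had 3, 6 and 0 counts in EpiLC, 22, 21 and 15 in aEpiLC and 43, 31 and 19 in pEpiLC. It was called higher than in EpiLC in aEpiLC (log2 fold change 2.64, SE 0.602, adjusted p = 0.00283) and in pEpiLC (3.33, SE 0.710, adjusted p = 0.00793), and its EpiLC libraries were below all others. Pcdha12, with 2, 6 and 2 counts in EpiLC and 24, 19 and 14 in pEpiLC, was called higher in pEpiLC (2.48, SE 0.518, adjusted p = 0.00722). Pcdha1 had 0, 2 and 0 counts in EpiLC and 12, 13 and 10 in pEpiLC, or at least 3.84-fold more CPM. Pcdha4 was called higher in aEpiLC than in EpiLC (1.36, SE 0.503, adjusted p = 0.0399) and lost that call in 8 of 13 alternatives. Pcdhac2, a C-type gene of the Pcdha cluster, had 3 to 24 counts in EpiLC, 8 to 18 in aEpiLC and 9 to 20 in pEpiLC and was not called.

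Of the 86 genes, 41 were tested in all 3 comparisons, 9 in 2, 2 in 1 and 34 in none, since edgeR's filter asks for enough counts in a group of libraries. The untested genes were 7 outside the clusters, 8 Pcdha, 18 Pcdhb and 1 Pcdhg gene. Cdh5, the endothelial cadherin, Cdh26 and Pcdh15, part of the tip link of hair cells, had at most 3 counts in each of the 9 libraries. Cdh17, a cadherin of the intestine, had 0 counts in all EpiLC and aEpiLC libraries and 28, 2 and 3 in pEpiLC, or at least 3.72-fold more mean CPM than in aEpiLC, and replicates 2 and 3 alone did not exceed the detection limit. Cdh18 had 1 to 13 counts, Pcdh20 1 to 10 and Cdh19 at most 5. Cdh23, the partner of Pcdh15 in the tip link, was tested, with 51, 17 and 20 counts in pEpiLC and 8 to 17 elsewhere, and was not called (log2 fold change over aEpiLC 1.55, unadjusted p = 0.0216, adjusted p = 0.0960), although every pEpiLC library lay above every aEpiLC library. Without pEpiLC replicate 1 its log2 fold change was 0.85 (adjusted p = 0.210). Cdh22 with 2 to 22 counts and Pcdh10, a delta protocadherin of the brain, with 0 to 18 were not called either.

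Of 26 listed partners of cadherins, most of them proteins inside the cell such as the catenins, 25 were tested. Ptk2b, a kinase that clustered protocadherins inhibit, was called lower in pEpiLC than in aEpiLC, at 8.48, 12.6 and 14.9 CPM against 26.5, 22.5 and 25.3 CPM (log2 fold change -1.06, adjusted p = 0.0127), and at -0.86 (adjusted p = 0.000385) without pEpiLC replicate 1 it fell short of the size for a call. Ctnna2, the neural alpha-catenin, and Nectin1 were called higher in aEpiLC than in EpiLC, by log2 fold changes of 1.57 (adjusted p = 0.00340) and 1.04 (adjusted p = 1.56e-06). The remaining partners, Ctnnb1 and Ctnna1 among them, were not called in these comparisons. Over all genes 4.74% were called lower between pEpiLC and aEpiLC and 7.25% higher between aEpiLC and EpiLC. The 1 and 2 of 25 partners are near these shares and are not a result about the list. Of 27 other genes of the cadherin superfamily 17 were tested, and Clstn2, a synaptic calsyntenin, was called higher in each comparison, with log2 fold changes of 1.63 for pEpiLC over aEpiLC, 2.83 for pEpiLC over EpiLC and 1.18 for aEpiLC over EpiLC. Dsc2, a desmosomal cadherin, had 4.33 to 5.48 CPM in EpiLC, 20.3 to 23.6 CPM in aEpiLC and 9.73 to 12.5 CPM in pEpiLC, and was called higher in both later states than in EpiLC and lower in pEpiLC than in aEpiLC. Dsg2, which pairs with it in desmosomes, was called higher in pEpiLC than in EpiLC. Without pEpiLC replicate 1 the log2 fold changes over EpiLC were 0.96 for Dsc2 and 0.73 for Dsg2, under the size for a call. Dchs2 and Dsc3 were called higher in aEpiLC than in EpiLC. Of the 17 genes, 1 was called higher and 1 lower between pEpiLC and aEpiLC, beside 2.55% and 4.74% of all genes. The genes called higher than in EpiLC were 3 in pEpiLC and 4 in aEpiLC, beside 7.71% and 7.25%. So few calls are not a result about the list.

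Genes that act on the chromatin of the protocadherin clusters formed a list of 14, of which 1 was called lower between pEpiLC and aEpiLC and 2 between pEpiLC and EpiLC, beside 4.74% and 8.13% of all genes called lower. So few calls among 14 genes are not a result about the list. Dnmt3b, the DNA methyltransferase known to methylate promoters of the clusters in the early embryo, had 2492 to 2798 CPM in EpiLC, 2356 to 2613 CPM in aEpiLC and 747, 1608 and 1412 CPM in pEpiLC. It was called lower in pEpiLC than in aEpiLC (log2 fold change -1.02, adjusted p = 0.0303), and pEpiLC replicate 1, the library with the highest Pcdhg level, was the lowest. Without that library the log2 fold change was -0.75 (SE 0.0818, adjusted p = 5.42e-05) against aEpiLC and -0.83 (SE 0.0596) against EpiLC, both under the size for a call. Dnmt3a was called lower in pEpiLC than in EpiLC (-1.56, adjusted p = 0.00132, and -1.32 without pEpiLC replicate 1), at 120, 225 and 210 CPM against 497 to 592 CPM. Whether these levels bear on the Pcdhg counts was not tested. Of 10 proteases that cut or mature cadherins, Adam10, which sheds the outer part of cadherins and Pcdhg proteins, rose from 20.4, 18.4 and 17.8 CPM in aEpiLC to 61.2, 31.2 and 32.4 CPM in pEpiLC (log2 fold change 1.13, adjusted p = 0.0263), or by 0.74 (adjusted p = 0.000261) without pEpiLC replicate 1, under the size for a call. Aph1b, a subunit of gamma-secretase, was called higher than in EpiLC in both later states.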

How the data were processed

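Total RNA of 9 libraries, 3 per state, was sequenced as paired-end reads. The authors aligned them with STAR 2.7.9a (GRCm38) and deposited RSEM 1.3.1 expected counts per gene symbol, without normalization, and these were rounded to whole numbers here. The gene annotation and the strand of the libraries are not given in the sources used here. The 86 genes and all gene lists were chosen with earlier results of these data known. Fits used the 6 libraries of the states compared, in R 4.3.3 with edgeR 4.0.16 (filterByExpr by state, TMM, glmQLFit and glmQLFTest), and a standard error is the size of the log2 fold change over the square root of F. Adjusted p-values were taken over all genes tested. On simulated data with known changes the procedure was tested first. Where no library of a state exceeded 3 counts, the fold is a lower bound. GENCODE vM21 (GRCm38) gave exon lengths, shared exons and positions, and 85 of the 86 symbols matched 1 gene there. Promoters are from RefSeq.

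Named genes are those outside the clusters called in any comparison, the 5 with the highest CPM per kb in each state, up to 5 called per cluster and comparison, and a list set by name. Alternatives were RLE size factors, DESeq2 1.42.0, the likelihood ratio test, other filters, all 9 libraries in 1 fit, the replicate block, truncated counts, the adjusted p alone and leaving out each library.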

Additional observations from a re-analysis of the deposited data

How the results depend on the processing

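No fold change of a called gene reversed in any alternative. All calls were kept in every alternative that tested the gene for 2 of 7 calls between pEpiLC and aEpiLC, 21 of 24 between pEpiLC and EpiLC and 13 of 22 between aEpiLC and EpiLC. Leaving out 1 library at a time gave 0 to 6 genes higher (4 with all libraries) and 2 to 6 lower (3) in pEpiLC against aEpiLC, 20 to 24 higher and 3 lower against EpiLC, and 17 to 21 higher and 0 to 1 lower in aEpiLC against EpiLC. With at least 10 counts in every library, 22 genes were left in each contrast with EpiLC. Of these, 7 (31.8%) were called higher in pEpiLC and 5 (22.7%) in aEpiLC, against 45.7% in both contrasts with edgeR's filter. All genes gave 6.03% and 5.60% with at least 10 counts. The adjusted p alone gave 5 lower genes between pEpiLC and aEpiLC. The single lower call between aEpiLC and EpiLC, Cdh15, became 0 with DESeq2 (adjusted p = 0.0671), with at least 10 counts, where it was not tested, and without EpiLC replicate 2 or any 1 aEpiLC replicate. In those leave-one-out fits edgeR passed 0 genes as lower without EpiLC replicate 2 and 1 without each aEpiLC replicate at an unadjusted p, and DESeq2 0. DESeq2 left the adjusted p of Pcdh7 empty in both contrasts with pEpiLC, and those fits are not counted as lost calls. Leaving out pEpiLC replicate 1 for the related genes (partners, other superfamily genes, chromatin genes and proteases) was an alternative chosen after seeing the data. The cause of these changes was not tested. Summed cluster levels moved by less than the SD between replicates under other scalings.

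The labels number the replicates 1 to 3 in each state. Deviations of same-numbered libraries correlated at 0.176, 0.121 and 0.064 between pEpiLC and aEpiLC, 0.023, 0.033 and 0.014 between pEpiLC and EpiLC, and 0.025, -0.056 and -0.062 between aEpiLC and EpiLC, so the numbers were not taken to pair the libraries, although in the contrasts with pEpiLC every library correlated best with its own number. With the replicate block the counts of genes higher and lower were 5 and 2, 21 and 3, and 21 and 1.

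Depth limited the Pcdha and Pcdhb genes most: 3 counts were worth 0.131 to 0.144 CPM, and 34 of the 86 genes could not be tested.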
